A study of Homo sapiens with 8 samples.

Results

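The distal sites described here are stretches of open chromatin, away from promoters, that were listed after treatment of HCT8 colon carcinoma cells with membrane vesicles (MVs) of either bacterium and were not listed in mock-treated cells. The peaks of the 3 FAIRE-seq lists were joined where they shared at least 1 bp. A region was a member if it held at least 1 peak after *E. coli* MVs, at least 1 peak after *V. cholerae* MVs and no peak in mock, shared no base with any listed H3K4me3 peak and lay more than 2 kb from every annotated start site. This gave 9003 members of 167160 FAIRE regions (5.39%). They were 8.64% of the 104230 distal regions, that is, of all FAIRE regions that met the same limits on H3K4me3 and start sites. Of the 22475 regions with both MVs and without mock, 9253 shared a base with an H3K4me3 peak and 4219 more lay within 2 kb of a start site. The remaining 40.1% were the members.

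HCT8 is an established human line from an ileocecal colorectal adenocarcinoma. The cells were kept for 5 h with MVs of *E. coli* K-12 strain MC1061, a laboratory strain, or of *V. cholerae* O1 El Tor strain C6706, a pathogen, or were mock-treated with buffer alone. Each treatment had 1 FAIRE-seq and 1 H3K4me3 ChIP-seq library, so no difference between treatments could be set against replicates, and no test between them was made. All intervals given are exact 95% intervals and cover counting error only.

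FAIRE recovers DNA that is not held by nucleosomes after crosslinking. Away from promoters such DNA often marks enhancers, where transcription factors bind and act on genes at a distance. AP-1, a dimer of Fos and Jun family proteins made in response to growth factor, stress and microbial signals, and NF-kB, the main factor of the inflammatory response to bacterial products, both act largely through such elements in epithelial cells. H3K4me3 marks the start sites of active genes and is low at enhancers. MVs are small particles shed from the outer membrane of Gram-negative bacteria that carry lipopolysaccharide and proteins to host cells.

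The AP-1 motif was followed in most detail among the sequence motifs searched. Its sites are shown first, in the 4 members of highest level that held it in their central 300 bp. Level here is the lower of the FAIRE tag counts of both MV libraries, each normalized to 10000000 tags of its library (normalized tags). Each sequence is the plus strand of hg19 (GRCh37), 101 bases centred on the motif, with the AP-1 motif (TGANTCA) in capitals. These 4 were chosen after their values were seen.

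chr19:41427290-41427390, outside annotated genes, nearest coding gene CYP2A7: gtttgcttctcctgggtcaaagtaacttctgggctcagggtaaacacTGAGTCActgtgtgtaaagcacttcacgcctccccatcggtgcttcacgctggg
chr3:27575320-27575420, outside annotated genes, nearest coding gene SLC4A7: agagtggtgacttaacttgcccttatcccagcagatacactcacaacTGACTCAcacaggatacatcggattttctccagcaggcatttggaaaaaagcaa
chr19:42278566-42278666, in an intron of a lncRNA, nearest coding gene CEACAM6: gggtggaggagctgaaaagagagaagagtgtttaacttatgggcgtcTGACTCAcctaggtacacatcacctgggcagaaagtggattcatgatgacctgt
chr5:71234943-71235043, outside annotated genes, nearest coding gene MAP1B: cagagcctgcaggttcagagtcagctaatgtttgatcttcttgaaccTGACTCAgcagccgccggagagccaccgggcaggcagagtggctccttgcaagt

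The member near CYP2A7 had 131.8 normalized FAIRE tags after *E. coli* MVs and 58.0 after *V. cholerae* MVs. The site near CEACAM6, which encodes a cell surface glycoprotein of intestinal epithelium that some enterobacteria bind, had 103.9 and 56.3. The site near SLC4A7, a sodium bicarbonate transporter gene, had 78.6 and 58.0, and that near MAP1B, a microtubule-associated protein gene, had 86.2 and 55.5. None of these 4 had a mock FAIRE peak.

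The sequences of 2 of the 5 members of highest level, and those of the members of highest level whose nearest coding gene was an AP-1 or immediate early gene or an NF-kB subunit or target, are given by the 300 bases at the centre of the region, again on the plus strand of hg19. Capitals mark matches to any of the 17 motifs searched. No AP-1 or NF-kB match lay in these 4 windows, and the first and the second hold no match at all. The windows of the members near FAM136A and SOX10, which had higher levels and are not shown, held 1 CDX and 1 KLF match. In the FOSL2 window they are a GATA and a KLF match, and in the TNFAIP3 window a TEAD match that runs into a FOX match, and an HNF4 match.

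chr12:125222872-125223171, nearest coding gene SCARB1: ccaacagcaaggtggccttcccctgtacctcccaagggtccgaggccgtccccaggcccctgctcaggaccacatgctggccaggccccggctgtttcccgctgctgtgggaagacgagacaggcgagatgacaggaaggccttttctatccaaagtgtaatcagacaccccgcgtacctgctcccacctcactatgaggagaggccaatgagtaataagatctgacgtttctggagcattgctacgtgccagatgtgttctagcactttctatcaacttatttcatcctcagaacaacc
chr3:9343034-9343333, nearest coding gene SRGAP3: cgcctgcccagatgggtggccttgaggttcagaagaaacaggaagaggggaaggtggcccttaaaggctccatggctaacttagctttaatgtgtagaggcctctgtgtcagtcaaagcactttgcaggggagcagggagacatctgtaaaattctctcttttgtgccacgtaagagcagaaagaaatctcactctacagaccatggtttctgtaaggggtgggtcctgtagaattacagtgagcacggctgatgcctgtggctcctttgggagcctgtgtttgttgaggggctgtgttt
chr2:28578618-28578917, nearest coding gene FOSL2: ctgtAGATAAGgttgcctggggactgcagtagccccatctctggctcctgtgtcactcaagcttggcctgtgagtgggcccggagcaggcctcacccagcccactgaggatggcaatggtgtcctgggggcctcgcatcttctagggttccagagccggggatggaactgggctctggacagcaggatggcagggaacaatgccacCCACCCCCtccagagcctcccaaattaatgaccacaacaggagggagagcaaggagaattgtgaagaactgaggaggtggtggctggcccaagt
chr6:138018771-138019070, nearest coding gene TNFAIP3: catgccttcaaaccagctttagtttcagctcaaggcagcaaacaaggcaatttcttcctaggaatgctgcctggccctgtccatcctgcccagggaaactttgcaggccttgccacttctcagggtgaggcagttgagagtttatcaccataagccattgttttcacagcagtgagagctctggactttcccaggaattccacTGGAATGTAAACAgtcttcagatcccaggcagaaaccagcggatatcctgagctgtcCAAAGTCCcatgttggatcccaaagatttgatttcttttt

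The 3 FAIRE libraries differed in depth and in how much of the depth lay in peaks. Mock was the deepest, with 14474665 tags, of which 7.12% lay in its 66436 peaks. The *E. coli* MV library held 7888670 tags with 37.3% in 94231 peaks, and the *V. cholerae* MV library held 12077180 tags with 13.9% in 79591 peaks. Since the members were chosen for the lack of a mock peak, these values stand beside every count of them, and the part of the enrichment of the mock library in these counts was not tested. H3K4me3 peaks at start sites of 12 epithelial marker genes were listed for 10 in mock, 11 after *E. coli* MVs and 10 after *V. cholerae* MVs, with summed levels of 3696, 6056 and 6315 normalized tags. KRT20 had no peak in any library. Of 13 markers of other cells, 1, 3 and 4 had a peak, with summed levels of 101.0, 161.5 and 206.0. Most of this lay at CD14, while PTPRC, CD3E, COL3A1, VWF, DES, MYOD1, SNAP25 and ALB had none.

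Members were of moderate level. The median was 17.7 normalized FAIRE tags after *E. coli* MVs (quartiles 13.9 and 29.2) and 11.6 after *V. cholerae* MVs (quartiles 9.94 and 15.7), each a median of 14 tags as counted. A site open in more cells and a site more open in each cell cannot be told apart in such data. These values are a description, since the presence of both peaks chose the members. Distal regions listed in all 3 libraries were higher, at medians of 22.8 and 13.2, and those listed after *E. coli* MVs only or *V. cholerae* MVs only were lower, at 15.2 and 9.94. The members ran from 8.87 to 276.3 after *E. coli* MVs and from 7.45 to 95.2 after *V. cholerae* MVs. By the lower of both values, 3339 members (37.1%) were under 10 and 954 (10.6%) reached 20.

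In 8835 members each MV library contributed 1 peak. The peaks of both libraries shared a median of 478 bp, and the regions had a median width of 875 bp. The centres of both peaks lay a median of 177 bp apart and within 250 bp of each other in 61.8% of members. Over the 9003 members the levels after *E. coli* and *V. cholerae* MVs had a Spearman correlation of 0.28, given as a description. That both MVs listed the same place was the rule that chose the members. Since members rest on few tags and were cut at the limits of both lists, this correlation cannot tell whether their ranks differ between the MVs.

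What the mock list could have held was read from its own limits. Its weakest listed peak had 9 tags and its caller's threshold was 12. At the level seen after *E. coli* MVs all members would have reached 12 tags in mock, and at the level seen after *V. cholerae* MVs 92.1% would. These are tags summed over whole regions, of a median width of 875 bp, while the caller's peaks were of 500 bp before stitching. The caller's limits over input were not applied. Shares that reach the threshold may thus be too high, and the shares under it given below too low. At distal regions of all 3 libraries, however, the mock level was a median 0.50 times that after *E. coli* MVs and 0.834 times that after *V. cholerae* MVs. Scaled by these ratios, 45.7% and 37% of members would have stayed under 12 tags in mock, and 15.5% and 0.844% under 9 tags. The regions of all 3 libraries were themselves chosen for a mock peak, so the ratios may be too high and these shares too low. Mock peaks were also common close by: 1367 members (15.2%) had one within 1 kb and 5152 (57.2%) within 5 kb, against 13.8% and 52.3% of regions after *E. coli* MVs only and 11.4% and 43.6% of those after *V. cholerae* MVs only.

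The 8 members of highest level were chosen by the lower of their values with both MVs, which ran from 62.9 to 95.2. The sites near CYP2A7 and SLC4A7 shown above followed closely at 58.0. The highest lay outside annotated genes at chr2:70555918-70558097, 26719 bp from a start site of FAM136A, with 129.3 normalized tags after *E. coli* MVs and 95.2 after *V. cholerae* MVs. Next was chr22:38391731-38397426 in an intron of POLR2F, an RNA polymerase subunit gene, 8302 bp from SOX10, a transcription factor gene of neural crest cells, with 144.5 and 88.6. A member on chromosome 8 outside annotated genes, 153983 bp from POU5F1B, had 143.2 and 88.6. In these 3 the level after *V. cholerae* MVs was at least 88.6, in a group whose median was 11.6.

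Another 2 of the 8 lay on chromosome 12. One, at chr12:125221504-125224541, lay outside annotated genes 46498 bp from SCARB1, the receptor gene for high density lipoprotein, with 84.9 and 70.4. The other, at chr12:116939931-116941855 in an intron of LINC02457, 44055 bp from MAP1LC3B2, had 140.7 and 68.7. The other three were intragenic. The member at chr3:9341726-9344642 in an intron of SRGAP3, which regulates Rac signalling, had 72.2 and 69.6. That at chr1:12200978-12207647 touched an exon of TNFRSF8, the gene of CD30, a receptor of the tumor necrosis factor family, and had 235.8 and 64.6. The last, at chr17:55452730-55454178 in an intron of MSI2, an RNA-binding protein gene of stem cells, had 109.0 and 62.9. All 8 were higher after *E. coli* MVs on this scale, and none held the AP-1 motif in its central 300 bp, although 5 of the 8 held it elsewhere in the region.

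Which MVs gave the higher level at a member depended on the scale. Normalized to all tags of each library, the median log2 ratio of *V. cholerae* over *E. coli* MVs was -0.56 (quartiles -1.11 and -0.16), and 17.1% of members were higher after *V. cholerae* MVs. Distal regions of all 3 libraries had a median of -0.70, so the members did not stand lower than these. Scaled to tags in peaks in place of all tags, the median in members was 0.86 and 83.5% were higher after *V. cholerae* MVs, since the *E. coli* MV library had more of its tags in peaks. The order of members along this ratio is the same on both of these scales. It can differ per 1000 bp of called peak, where each level is divided by its own peak width.

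At one end of this order, among members in the upper 50% by level, were sites in LIM2 and LRRFIP1. The member at chr19:51882965-51885256, which touched an exon of LIM2, had 13.9 normalized tags after *E. coli* MVs and 42.2 after *V. cholerae* MVs, a log2 ratio of 1.60 (0.64 to 2.69). The member at chr2:238651732-238653805 in an intron of LRRFIP1, which encodes a sensor of nucleic acids in the cytoplasm, had 12.7 and 38.1, a log2 ratio of 1.58 (0.58 to 2.74). A member at chr11:68864021-68865922 in an intron of TPCN2, a lysosomal ion channel gene, had 11.4 and 33.9. Their intervals were wide because each rested on 9 to 11 tags after *E. coli* MVs.

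At the other end were broad regions carried by *E. coli* MVs. The member at chr9:137291525-137297543 touched an exon of RXRA, the retinoid X receptor gene, and had 177.5 normalized tags after *E. coli* MVs against 11.6 after *V. cholerae* MVs, a log2 ratio of -3.94 (-4.84 to -3.14). The member at chr14:101020157-101025396 in an intron of BEGAIN had 167.3 against 15.7, and that at chr3:127706503-127710674, which touched an exon of KBTBD12, had 114.1 against 11.6. These 3 were 6018, 5239 and 4171 bp wide, against the median of 875 bp.

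Members lay within genes about as often as any distal region did. Of the 9003, 5942 (66.0%, 65 to 67) shared a base with an annotated gene, against 66.1% of all distal regions, and 5102 (56.7%) with a protein-coding gene, against 55.5%. They touched exons more often: 1750 did so (19.4%, 18.6 to 20.3), against 15.5% of all distal regions, 18.8% after *E. coli* MVs only, 11.8% after *V. cholerae* MVs only and 11% with mock only. Regions of all 3 libraries had the higher value of 22.7%, and those with mock and *E. coli* MVs had 22.4%. A wider region has more bases to share with an exon. The median width was 875 bp in members, 1246 bp and 874 bp in these 2 classes, and 500 bp in the others. The part of width in these shares was not tested. Another 4192 members (46.6%) were intronic and 3061 (34.0%) lay outside annotated genes.

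The median distance to the nearest start site of any gene type was 9479 bp (quartiles 4730 and 19962), against 10711 bp over all distal regions and 11995 bp for mock only. For start sites of protein-coding genes alone it was 16424 bp, with 3277 members (36.4%) within 10 kb and 974 (10.8%) beyond 100 kb. The nearest start site belonged to a protein-coding gene for 4916 members and to a lncRNA for 2385. H3K4me3 peaks lay within 2 kb of 11.7% of members and within 10 kb of 44.8%, against 8.80% and 36.7% of all distal regions and 13.3% and 47.8% of regions of all 3 libraries. Members thus lay somewhat nearer to marked promoters than distal regions in general.

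The member farthest from any start site lay 406805 bp from it, on chromosome 8, with 10.1 and 7.45 normalized tags. The next, at chr4:161052370-161052943, lay 353390 bp from one, with 17.7 and 14.1. The limit of 2 kb passed through a continuous range. Just inside it, members lay 2001 bp from RNF212 (20.3 and 9.94 normalized tags), 2004 bp from LINC02236 (29.2 and 9.11) and 2005 bp from HM13-AS1 (60.8 and 15.7). Just outside were regions 1999 bp from CARS2 (11.4 and 10.8), 1999 bp from EPN2 (21.5 and 9.94) and 1998 bp from SLC22A18 (35.5 and 11.6).

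Chromosomes differed in how many of their distal regions were members. The share was 5.88% on chromosome 18 and 6.61% on chromosome 13, and 12.4% on chromosome 19, 10.8% on chromosome 22 and 10.4% on chromosomes 16 and 17. The mean GC content of distal regions was 52.3% and 51.4% on the former and 56.0%, 55.4%, 54.0% and 53.9% on the latter. Chromosome X had 342 distal regions in all, 39 of them members.

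The members were rich in GC. The central 300 bp had a mean GC content of 55.6% ± 5.54 (SD over 9003 regions), near the 55.5% of regions of all 3 libraries and the 56.4% of those after *E. coli* MVs only. Regions after *V. cholerae* MVs only (50.8%) and mock only (49.7%) were lower. In this property the members resembled the *E. coli* MV list, and each library's own GC preference cannot be told apart from the treatment. The same split held for CpG dinucleotides, with a mean of 6.34 per window in members, 6.54 after *E. coli* MVs only, 4.50 after *V. cholerae* MVs only and 4.11 with mock only.

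The AP-1 motif was more frequent in members than in any of the classes it was set beside. It lay in the central 300 bp of 1127 members (12.5%, 11.8 to 13.2), against 9.60% of all 104230 distal regions (9.42 to 9.78). Regions of all 3 libraries had it in 9.71% (8.89 to 10.6), those after *V. cholerae* MVs only in 10.1% (9.77 to 10.5), with mock only in 9.25% (8.90 to 9.60) and after *E. coli* MVs only in 8.80% (8.47 to 9.13). The interval of the members did not meet those of the other classes. Since the motif contains more A and T than the members do on average, its share was also read within bands of GC content. Between 45% and 55% GC it was 16.8% in members against 10.9% of all distal regions and 12.3% of regions of all 3 libraries. Between 55% and 65% GC it was 9.25% (8.42 to 10.1) against 7.41% and 8.07%. The interval of the members here met that of regions of all 3 libraries, which reached 9.25%. Under 45% GC the share in members was 23.4% (17.5 to 30.2) against 12.1% and 10.2%. Regions after *E. coli* MVs only had 20.5% there (16.1 to 25.6), an interval that met that of the members. Above 65% GC members had 4.12% (2.46 to 6.43) against 3.18% and 2.77%. Regions after *V. cholerae* MVs only had the higher value of 4.52% (1.83 to 9.08).

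The share was higher in members of higher level. In the lowest 10% by level 68 of 901 members held the motif (7.55%, 5.91 to 9.47), and in the highest 10% 195 of 901 (21.6%, 19.0 to 24.5). The bins of 10% between ran from 8.44% to 17.8%. Mean GC content moved little over this range, from 56.4% in the lowest 10% to 54.9% in the highest. Against other classes at the same level, the order differed between high and low levels. Above 20 normalized tags after *V. cholerae* MVs the motif was in 19.9% of 1304 members (17.8 to 22.2). At that level it was in 12.9% of 568 regions after *V. cholerae* MVs only (10.2 to 15.9), 12.9% of 272 with mock and *V. cholerae* MVs (9.13 to 17.4) and 12.2% of 1186 of all 3 libraries (10.4 to 14.2). Between 14 and 20 it was in 15.1% of members (13.5 to 16.8), against 11.3%, 8.98% and 10.2% in the same classes, and between 11 and 14 in 12.7% (11.1 to 14.3), against 10.9%, 9.82% and 7.49%, where the interval of the members met those of the first and the second of these. At lower levels it met those of all 3 classes. Between 9 and 11 the shares were 9.19% in 3383 members and 9.81%, 9.06% and 8.42% in the other classes. Up to 9 they were 7.69% in 715 members (5.85 to 9.90) and 9.06%, 7.35% and 9.80%.

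**Figure D1:**
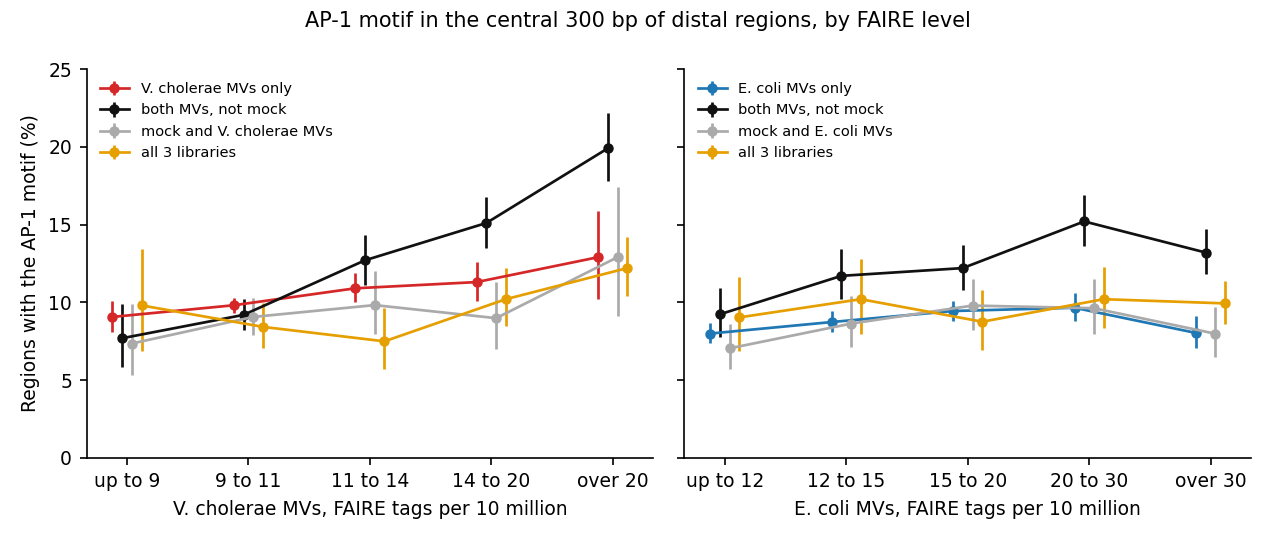
Share of distal regions with the AP-1 motif in the central 300 bp (%), by the normalized FAIRE tags after *V. cholerae* MVs (left) and *E. coli* MVs (right), with exact 95% intervals as bars. On the left the members (black) run from 7.69% to 19.9%, while regions of all 3 libraries (orange) run from 7.49% to 12.2%.

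Along the level after *E. coli* MVs the range of the share was narrower. Members had the motif in 9.23% up to 12 normalized tags, in 15.2% between 20 and 30 and in 13.2% above 30. Regions after *E. coli* MVs only stayed between 7.99% and 9.65% in all of these bands.

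The motif also lay at the centre of the members. Over the central 200 bp there were 51.2 AP-1 motifs per 1000 members and 100 bp, against 29.4 at 1000 bp or more from the centre, a ratio of 1.74. In the highest 10% the values were 98.2 and 32.0, a ratio of 3.07. Regions of all 3 libraries had 36.3 at the centre and 29.6 in the flanks, a ratio of 1.23. Regions with mock only had 33.8 and 33.7, a ratio of 1.01, so that their flanks were above those of members. Centred on the part that both MV peaks shared, members had a ratio of 1.88.

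CTCF, the factor that bounds chromatin loops, had a rarer motif with a wider relative range between classes than AP-1. It was in 117 members (1.3%, 1.08 to 1.56), against 0.631% of all distal regions (0.584 to 0.681), 0.626% after *E. coli* MVs only, 0.551% after *V. cholerae* MVs only and 0.260% with mock only. Regions of all 3 libraries had it in 1.5% (1.18 to 1.88), an interval that met that of the members. The KLF motif (GGGNGTGG) was in 16.5% of members against 13.6%, and the NF-kB motif in 12.4% against 10.4%. For both, regions after *E. coli* MVs only were close to the members, at 16.0% and 13.0%. The CDX motif (TTTATNG) of the intestinal CDX1 and CDX2 factors was in 6.73% of members against 8.56%, and the ISRE motif (GAAANNGAA) of interferon response factors in 5.61% against 7.01%. Regions after *E. coli* MVs only had these in 5.56% and 5.29%, and regions of all 3 libraries in 7.01% and 6.40%. The shares were 10.6% and 8.23% after *V. cholerae* MVs only, and 11.2% and 8.40% with mock only. Only the AP-1 motif was read within bands of GC content.

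For the remaining factors reported here the shares in members and over all distal regions are given in that order. These were TEAD (CATTCCA, 5.82% and 5.78%), RUNX (TGTGGTT, 5.70% and 5.54%), TCF/LEF (ATCAAAG, 3.23% and 3.19%) and FOX (TGTTTAC, 2.78% and 2.82%). The GATA factor motif, spelled AGATAAG, was at 2.87% in both, and C/EBP (TTGCNCAA) at 2.95% and 3.32%. The rarer matches were HNF4 (CAAAGTCC, 1.87% and 1.63%), STAT (TTCCNGGAA, 1.12% and 1.05%), ETS (CCGGAAGT, 0.322% and 0.315%) and ATF/CREB (TGACGTCA, 0.167% and 0.195%). Both strands were searched and motifs could overlap. A match is a run of letters and not a shown binding site.

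NF-kB matches lay in 13.7% of the lowest 10% and 11.2% of the highest. The CDX motif went from 6.55% to 9.99% (8.11 to 12.1) and CTCF from 0.444% to 1.22%, with 2.67% in the bin next to the highest.

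Members lay near each other somewhat more often than distal regions in general. Of the 18002 distal regions next to a member on either side, 1928 (10.7%) were themselves members, against 8.64% over all distal regions. This was not particular to members, since 11.1% of the neighbours of regions of all 3 libraries were members, while the value was 9.12% beside regions after *E. coli* MVs only, 7.68% after *V. cholerae* MVs only and 7.30% with mock only. With members joined where they lay within 50 kb of each other, 6084 (67.6%) fell into clusters of 2 or more and 2919 stood alone. There were 34 clusters of 10 or more, holding 470 members.

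The cluster with the most members spanned 530.5 kb at chr1:3005665-3536172 over PRDM16, ARHGEF16 and MEGF6. PRDM16 encodes a zinc finger regulator of brown fat and stem cell fate. It held 35 members among 140 distal regions (25%), 33 of them in genes, with medians of 34.2 normalized tags after *E. coli* MVs and 10.8 after *V. cholerae* MVs. Another 56 of the 140 were listed after *E. coli* MVs only, 10 after *V. cholerae* MVs only, and 39 had a mock peak. The tall values were thus those after *E. coli* MVs.

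The second, of 31 members among 105 distal regions (29.5%), spanned chr7:155572874-155993564. It lay about SHH, the gene of the Sonic hedgehog ligand, which patterns the gut and is made by its epithelium, and 30 of its members had SHH as their nearest coding gene. Only 2 of them lay in genes, and the medians were 21.5 and 14.1 normalized tags. Across GSE1, at chr16:85191292-85675883, 28 of 115 distal regions (24.3%) were members, with medians of 23.5 and 11.2. Over ZMIZ1, PPIF and ZCCHC24, at chr10:80894774-81201040, 22 of 83 were members (26.5%), and over XXYLT1, at chr3:194600916-194976772, 17 of 73 (23.3%). These clusters were chosen for their number of members, so that their shares above 8.64% are a description. In the order given, 2 of 35, 2 of 31, 0 of 28, 3 of 22 and 1 of 17 members held the AP-1 motif. The share over all members was 12.5%.

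Of 20098 protein-coding genes, 4464 (22.2%) were the nearest coding gene to at least 1 member, by start site. For 341 genes there were 5 or more, and these took 28.3% of all members. The list was led by SHH with 30 members, GSE1 with 28, ZMIZ1, a coactivator of SMAD and androgen receptor, with 23, and by GLI2, a transcription factor of the hedgehog pathway, and PRDM16, with 21 each. CAMTA1 had 20, AGAP1 and PTPRN2 19 each, and SORCS2 and SHANK2 17 each. Genes with wide surroundings have more distal regions of any kind, so the share of a gene's distal regions that were members is given too. It was 27.5% of 109 for SHH, 22.8% of 123 for GSE1, 18.8% of 112 for PRDM16 and 17.4% of 121 for GLI2, but 10.8% of 185 for CAMTA1 and 9.83% of 173 for SHANK2, near the 8.64% of all.

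The AP-1 and immediate early genes were often nearest to a member: 17 of 22 were (77.3%), against 22.2% of all coding genes. Together they were nearest to 44 members among 362 distal regions, a share of 12.2% against 8.64%. FOSL2, the gene of the AP-1 subunit Fra-2, had 6 members of 38 distal regions. All 6 lay upstream, from 17.9 to 217.1 kb before its outermost start. The tallest, at chr2:28577704-28579832, 36.5 kb upstream and shown above by its central sequence, had 87.5 normalized tags after *E. coli* MVs and 45.5 after *V. cholerae* MVs. Its neighbour at chr2:28585866-28587455, which held the AP-1 motif, had 49.4 and 29.0. EGR3, an immediate early zinc finger gene, had 6 members of 35 distal regions, and KLF6 had 4 of 83.

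NF-kB subunits and targets were at the level of all genes, with 8 of 37 nearest to a member (21.6%) and 15 members among 195 distal regions (7.69%). TNFAIP3, the gene of A20, which limits NF-kB signalling, stood out with 6 members among 16 distal regions. At chr6:138018503-138019339, 169.4 kb upstream and in introns of lncRNA genes, the level was 31.7 after *E. coli* MVs and 21.5 after *V. cholerae* MVs. At chr6:138172774-138173457, 15.2 kb upstream in an intron of WAKMAR2, it was 16.5 and 8.28 and the AP-1 motif was present. The member at chr6:138195952-138196519, which touched an exon of TNFAIP3, had 12.7 and 10.8. CD83 had 3 members of 58 distal regions, and CCL20, the chemokine gene of gut epithelium that calls in dendritic cells and lymphocytes, had 1 of 3, with 20.3 and 19.0.

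Genes that sense bacterial products were near the background of all genes, with 8 of 29 nearest to a member (27.6%) and 13 members of 111 distal regions (11.7%). TLR5, the receptor gene for flagellin, had 4 members of 18 distal regions, all between 53.8 and 101.5 kb downstream of its outermost start. The tallest of these, at chr1:223254205-223255258, had 92.5 and 31.5 normalized tags. IRAK2, a kinase gene of the Toll-like receptor and interleukin-1 receptor pathways, had 2 members in its introns, with 35.5 and 41.4 at chr3:10240441-10241621 and 24.1 and 9.94 at chr3:10212273-10213403. MAP3K7, the gene of the kinase TAK1, had 2 members of 17 distal regions. Interferon response genes had 7 of 28 nearest to a member (25%), 8 members in all of 66 distal regions, with ISG20 at 2 and IFIT5 and IRF2 at 1 each.

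Genes of MAPK feedback and the EGF family were nearest to a member in 15 of 24 cases (62.5%), with 32 members of 344 distal regions (9.30%). DUSP5, a phosphatase gene that turns off ERK, had 4 of 25 distal regions. The one at chr10:112173741-112175771, 82.9 kb upstream and with the AP-1 motif, had 79.9 and 21.5 normalized tags. TGFA, the gene of an EGF receptor ligand, had 4 of 26 distal regions, and EGFR itself 3 of 45. Wnt target and crypt genes had 15 of 26 (57.7%), with 55 members of 534 (10.3%). Among them EPHB2, a receptor gene that orders crypt cells, had 10 members of 76 distal regions, and SMOC2 9 of 77. CCND1, the gene of cyclin D1, had 9 of 37 distal regions, all upstream between 13.6 and 130.7 kb, with levels from 11.4 to 62.1 after *E. coli* MVs and from 9.94 to 28.2 after *V. cholerae* MVs.

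Among genes of intestinal differentiation 19 of 31 were nearest to a member (61.3%), with 42 members of 371 distal regions (11.3%). SOX9, a gene of crypt progenitors and Paneth cells, had 8 of 60. Of the 12 epithelial markers 7 had a member, 10 in all of 66 distal regions (15.2%). ELF3, an epithelial ETS factor gene, had 2 of 5, both with the AP-1 motif, with 64.6 and 30.6 at chr1:201992080-201992754 and 11.4 and 8.28 at chr1:202000837-202001446. HNF4A had 2 of 6 and EPCAM 2 of 12.

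Junction and polarity genes were nearest to a member in 13 of 30 cases, with 38 members of 338 distal regions (11.2%). They were led by NECTIN1 with 11 of 83, AFDN, the gene of afadin, with 9 of 49, and PARD3 with 5 of 40. TGF-beta pathway genes had 13 of 27 and 44 of 506 (8.70%), with ID2 at 10 of 115, SMAD6 at 9 of 70 and SKI at 7 of 28. For actin cytoskeleton and adhesion genes the counts were 15 of 30 and 43 of 446 (9.64%), with TNS3 at 10 of 111 and RHOU at 6 of 50. Of 13 markers of other cells 3 had a member, 14 in all of 137 distal regions (10.2%). These were RBFOX3 with 10 of 89, VWF with 3 of 26 and MYOD1 with 1 of 8. By share of distal regions, therefore, the lists ran from 7.69% to 15.2% about the 8.64% of all, much closer to each other than the counts of genes.

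H3K4me3 at start sites was then read for the genes nearest to members, as a readout that chose the members only by its absence at the site itself. The tags of all H3K4me3 peaks within 1000 bp of any start site of a gene were summed, and a gene was called higher or lower at 2-fold or more against mock. Over all coding genes with peaks in both libraries 14.9% were called higher and 0.141% lower after *E. coli* MVs, and 27.7% and 0.273% after *V. cholerae* MVs. The median log2 ratio to mock over these genes was 0.52 and 0.63. Scaling to tags in peaks would lower all ratios by 0.48 and 0.54.

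Genes nearest to at least 1 member were called higher in 702 of 2990 cases after *E. coli* MVs (23.5%, 22 to 25) and in 1186 of 2996 after *V. cholerae* MVs (39.6%, 37.8 to 41.4), with median log2 ratios of 0.65 and 0.84. They were called lower in 2 and 11 cases. The share increased with the number of members. Genes with none had 12% and 23.8%, those with 1 had 18.3% and 33.8%, and those with 5 or more had 38.5% (32.5 to 44.7) and 58.6% (52.4 to 64.7). The GC content of the mock H3K4me3 peaks increased along the same order, from a mean of 54.6% to 61.0%, and so did the number of distal regions of any kind nearest to the gene, from a median of 1 to 45.

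**Figure D2:**
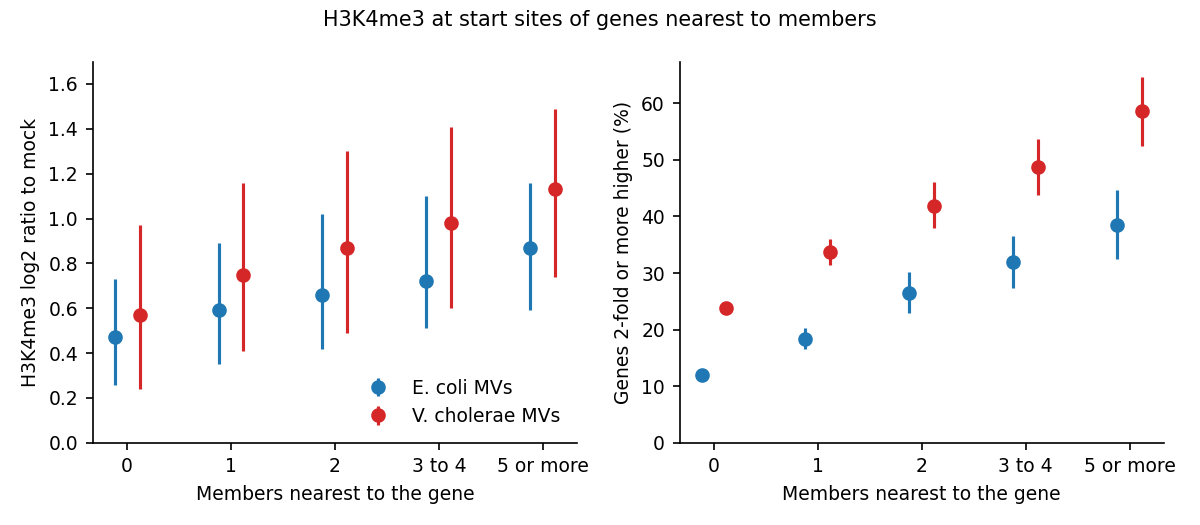
H3K4me3 at start sites by the number of members nearest to the gene, after *E. coli* MVs (blue) and *V. cholerae* MVs (red). On the left are medians of the log2 ratio to mock with quartiles as bars, on the right the share of genes 2-fold or more higher (%) with exact 95% intervals. The share runs from 12% to 38.5% after *E. coli* MVs and from 23.8% to 58.6% after *V. cholerae* MVs.

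Within 4 equal groups by that GC content the difference was smaller and of the same direction. In the group of highest GC content 51.3% of genes with a member were called higher after *E. coli* MVs against 41.5% of those without, and 81.3% against 76.1% after *V. cholerae* MVs. In the third group the values were 12.5% against 8.28% and 28.9% against 24.0%, and in the lowest 3.21% against 1.85% and 3.41% against 1.82%. GC content alone went with a wider range than the members did. Nor was the pattern particular to members. Counted over regions, the nearest gene was called higher for 30.1% of members after *E. coli* MVs and 47.1% after *V. cholerae* MVs, for 31.0% and 47.9% of regions of all 3 libraries, and for 28.6% and 45.6% of regions after *E. coli* MVs only. Regions after *V. cholerae* MVs only (21.3% and 35.6%) and mock only (19.9% and 33.1%) were lower. Over all distal regions the values were 24.7% and 39.9%. Regions with mock and *E. coli* MVs had 29.6% and 46.6%, and those with mock and *V. cholerae* MVs 22.3% and 35.9%.

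Several of the genes with the most members had large H3K4me3 ratios in summed tags, which were smaller per 1000 bp of called peak. At SHH the level was 92.4 normalized tags in mock, 298.2 after *E. coli* MVs and 375.8 after *V. cholerae* MVs, log2 ratios of 1.69 (1.16 to 2.26) and 2.02 (1.51 to 2.59). Per 1000 bp of called peak these ratios were 0.56 and 0.40. GLI2 had 31.8, 203.3 and 235.2, log2 ratios of 2.68 and 2.89 that rested on 11 tags in mock and were 0.47 and 0.75 per 1000 bp of peak. PRDM16 had 77.9, 246.0 and 312.0, log2 ratios of 1.66 and 2.0, or 0.79 and 1.07 per 1000 bp of peak. GSE1 went from 672.6 to 1358 and 1774, log2 ratios of 1.01 and 1.40, or 0.60 and 0.90 per 1000 bp of peak. CAMTA1, with 20 members, had 412.8, 473.0 and 587.9, the smallest ratios of the group at 0.20 (-0.07 to 0.47) and 0.51 (0.25 to 0.78), which turned to -0.29 and -0.03 scaled to tags in peaks. PTPRN2 and SORCS2, with 19 and 17 members, had no H3K4me3 peak in any library. A nearest gene with peaks in mock and *E. coli* MVs was found for 6249 of 9003 members and for 68980 of 104230 distal regions.

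Of the 16 AP-1 and immediate early genes with a member and a ratio, 5 were called higher after *E. coli* MVs and 11 after *V. cholerae* MVs, with median log2 ratios of 0.82 and 1.2. Over all coding genes 14.9% and 27.7% were called higher, and over all genes with a member 23.5% and 39.6%. Scaled to tags in peaks 5 and 5 of the 16 were called, and per 1000 bp of called peak 1 and 3. EGR3 had 52.0, 176.7 and 292.0 normalized tags in mock, *E. coli* MVs and *V. cholerae* MVs, and FOSL2 430.2, 767.5 and 970.7. The log2 ratios of EGR3 were 1.76 and 2.49, and 0.69 and 1.41 with peaks within 2000 bp of its start sites. TNFAIP3 had 106.8, 334.3 and 468.8, log2 ratios of 1.65 (1.16 to 2.18) and 2.13 (1.65 to 2.65). TLR5 had no H3K4me3 peak in mock and 90.2 and 76.9 with the MVs. IRAK2 had 66.4, 181.4 and 232.9, log2 ratios of 1.45 and 1.81. Per 1000 bp of called peak the log2 ratios were 0.41 and 1.13 at EGR3 and 0.63 and 1.13 at FOSL2. They were 1.06 and 1.41 at TNFAIP3 and 0.12 and 1.03 at IRAK2.

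The counts of the other lists stand beside the same shares, 14.9% and 27.7% of all coding genes and 23.5% and 39.6% of those with a member, and rest on few genes each. Genes with a member and a ratio that were called higher numbered, after *E. coli* and *V. cholerae* MVs, 2 and 4 of 6 NF-kB genes, 1 and 2 of 5 sensing genes and 1 and 2 of 5 interferon response genes. They were 4 and 6 of 13 MAPK and EGF family genes, 4 and 7 of 11 Wnt target genes, and 3 and 7 of 13 TGF-beta pathway genes. Among intestinal differentiation genes it was 3 and 3 of 11, among junction genes 2 and 3 of 12 and among actin genes 1 and 3 of 15. None of the 5 epithelial markers was called with either MVs. Scaled to tags in peaks the counts were 2 and 2 for NF-kB, 0 and 1 for sensing and 0 and 1 for interferon genes. For MAPK and EGF family, Wnt target and TGF-beta pathway genes they were 0 and 0, 1 and 1, and 1 and 1. For intestinal differentiation, junction and actin genes they were 2 and 2, 0 and 2, and 1 and 1. Over all coding genes 4.32% and 8.95% were called on this scale. Per 1000 bp of called peak these lists had at most 1 gene called after *E. coli* MVs and 2 after *V. cholerae* MVs. The shares of all coding genes were then 2.05% and 7.53%. Normalized to all tags, the median log2 ratios of these lists ran from 0.36 to 0.81 after *E. coli* MVs and from 0.57 to 1.17 after *V. cholerae* MVs.

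Among well marked genes with a member, the highest mean ratios over both MVs were at ZIC2, UNKL, EPHB3, ZBTB7A and CCDC57. ZIC2, a zinc finger gene of neural development, had 77.9 normalized tags in mock, 503.4 after *E. coli* MVs and 697.1 after *V. cholerae* MVs, and both distal regions nearest to it were members, with 17.7 to 35.5 and 14.9 to 23.2 normalized FAIRE tags. EPHB3, which like EPHB2 sorts cells along the crypt, had 213.6, 746.6 and 952.2, and 4 members. ZBTB7A had 277.2, 900.4 and 1301, UNKL 109.7, 449.3 and 658.6, and CCDC57 170.3, 546.1 and 751.7. Per 1000 bp of called peak the log2 ratio of ZBTB7A after *E. coli* MVs turned from 1.7 to -0.14, and that after *V. cholerae* MVs went from 2.23 to 0.38. Those of EPHB3 went from 1.81 and 2.16 to 0.23 and 0.58, those of ZIC2 from 2.69 and 3.16 to 0.88 and 1.36, those of UNKL from 2.03 and 2.59 to 1.14 and 1.33, and those of CCDC57 from 1.68 and 2.14 to 0.83 and 1.1.

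The lowest mean ratios were at TNRC6B, DNMBP, TAS2R14, MTPAP and IPO9, each with 1 or 2 members. TNRC6B, a gene of the microRNA silencing complex, had 1002 in mock, 1016 after *E. coli* MVs and 392.0 after *V. cholerae* MVs, a log2 ratio with the latter of -1.35 (-1.55 to -1.15). DNMBP had 874.7, 599.3 and 628.6, log2 ratios of -0.55 and -0.48 that turned to 0.18 and 0.27 per 1000 bp of called peak. TAS2R14 had 834.3, 632.6 and 581.0, MTPAP 765.0, 616.4 and 560.3, and IPO9 505.2, 429.3 and 401.9.

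H3K4me3 peaks listed with both MVs and not in mock were found at 696 of all coding genes (3.46%). They were found at 228 of the 4464 genes with a member (5.11%) and at 468 of the 15634 without (2.99%). Among those with most tags of the former were TMEM249, AC093323.1, SULF2 and NINJ2. SULF2, which edits heparan sulfate at the cell surface, had 228.0 after *E. coli* MVs and 294.4 after *V. cholerae* MVs and 3 members of 64 distal regions. NINJ2 had 190.9 and 219.8, AC093323.1 323.9 and 468.0, and TMEM249 12.3 and 950.7. The value of TMEM249 after *E. coli* MVs rested on 13 tags, that after *V. cholerae* MVs on 1237. The mock H3K4me3 library was the shallowest of the 3, with 3463875 tags against 10528314 and 13011839, and the part of its depth in these counts was not tested.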

How the data were processed

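HCT8 cells were profiled by FAIRE-seq and H3K4me3 ChIP-seq after 5 h, with 1 library per treatment and assay. The authors called peaks against input, and the 6 deposited peak lists were used, while the 2 input libraries were not analysed here. Per the file headers HOMER 4.7.2 stitched peaks of 500 bp at 4-fold over input and a p-value over input of 0.0001. The submitters' processing notes name Bowtie 1.1.2, SAMtools 1.3.1 and hg19, while the study's methods name Bowtie 2, and MACS beside HOMER. The deposited signal is a tag count normalized to 10000000 tags per library. Whole tag counts were recovered from it with the deposited library totals. The deposited fold over input and p-value were used only as stricter limits, and control tag counts and scores in the deposited lists were not used.

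Peaks on chromosomes 1 to 22 and X were joined and placed on GENCODE release 44 lifted to GRCh37, whose lengths hold all peaks. Shares have Clopper-Pearson intervals and ratios exact conditional binomial ones (95%, Python 3.11.15, scipy 1.17.1). Neighbouring regions are not independent, so the intervals are too narrow. Mock FAIRE peaks rest on 9 tags or more, and those after *E. coli* and *V. cholerae* MVs on 6 and 7 or more. For H3K4me3 the lowest counts were 4, 8 and 9 tags in the same order. Steps were tested on simulated data. Members, gene lists and motifs were chosen with earlier results of these data known. Named members and genes are those highest or lowest by level, ratio, distance or number of members, and at most 3 genes per list by number of members. A few genes, sequences and a motif are not reported here. PECAM1 had no entry in the annotation. Joining, limits, scaling, windows and gene types were varied.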

Additional observations from a re-analysis of the deposited data

How the results depend on the processing

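No paired analysis was possible because no treatment had a second library of an assay. The 9003 members became 3017 at 6-fold over input, 4921 at a p over input of 1e-06, and 13865 with the mock library left aside, a comparison added after seeing the data. Their share of distal regions (8.64%) was 7.29% with peaks joined at 50% of the shorter, 5.71% at 6-fold, 8.27% at 1e-06, 7.33% without a mock peak within 1000 bp and 8.30% beyond 5000 bp of start sites. With protein-coding genes only, 56.7% of members lay in genes, at a median of 16424 bp from a start site. The median log2 ratio of *V. cholerae* over *E. coli* MVs was 0.86 scaled to tags in peaks (83.5% of members higher, added after seeing the data), and -0.39 per 1000 bp of peak. At 6-fold 6.03% of neighbouring distal regions were members, against 5.71% of all. The AP-1 motif lay in 4.60% of members in a 100 bp window and 21.2% in a 600 bp window (3.25% and 17.8% of all distal regions), and, added after seeing the data, in 13.3% about the shared part and 11.5% with the mock library left aside. Genes nearest to members were called higher in H3K4me3 in 6.89% and 14% (*E. coli* and *V. cholerae* MVs) scaled to tags in peaks, against 4.32% and 8.95% of all genes, and in 3.21% and 10.8% per 1000 bp of peak, against 2.05% and 7.53%. Their medians were 0.17 and 0.30, and 0.29 and 0.43. Of 288 ratios of named genes under these scalings and a 2000 bp window, 20 changed sign. Scaled to tags in peaks these were, with *E. coli* MVs, CAMTA1 -0.29, MAP3K7 -0.27, TNS3 -0.05, ELF3 -0.05 and TNRC6B -0.46, and with *V. cholerae* MVs CAMTA1 -0.03, MAP3K7 -0.31 and ELF3 -0.02. Per 1000 bp of peak they were, with *E. coli* MVs, CAMTA1 -0.07, ISG20 -0.88, SOX9 -0.20, AFDN -0.22, TNS3 -0.23, ZBTB7A -0.14, TNRC6B -0.16 and DNMBP 0.18, and with *V. cholerae* MVs ISG20 -0.14, SOX9 -0.08, ID2 -0.03 and DNMBP 0.27. Another 134 kept their sign but left their counting interval, 70 of 96 scaled to tags in peaks, 58 of 96 per 1000 bp of peak and 6 of 96 with a 2000 bp window. The last were, with *E. coli* and *V. cholerae* MVs, EGR3 0.69 and 1.41, ZIC2 1.69 and 2.16, and CCDC57 2.71 and 3.18. The counts of list genes called higher under these scalings were added after seeing the data.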
